A study of Mus musculus with 14 samples.

Results

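The EYA and DACH genes and their SIX-family partners were followed through 14 RNA-seq libraries of mouse forelimb bud cells. They are *Six2*, *Six4*, *Six5*, *Eya1*, *Eya2*, *Eya3*, *Eya4*, *Dach1* and *Dach2*, 9 members chosen by name out of 24454 genes in the count table, and all 9 passed the filter that left 15125 genes for testing. The libraries come from 5 populations isolated by FACS from *Sox9*-IRES-EGFP embryos of a mixed Swiss Albino background, with forelimb buds of several embryos pooled for each library. S9-SCA-1+ cells (2 libraries), S9-JAG1+ limb bud mesenchymal progenitors (LMPs, 3 libraries) and S9-Pαhi LMPs (3 libraries) lack *Sox9*-EGFP and were sorted for SCA-1, for JAG1 or for high PDGFRα. S9+Pαhi osteo-chondrogenic progenitors (OCPs, 3 libraries) have *Sox9*-EGFP and high PDGFRα. These 4 populations are of embryonic stage E10.5, whereas the S9+PαhiCol2a1+ chondroblasts (3 libraries, S9+COL2+ in the plots) were taken at E11.5, so that population and stage cannot be told apart in any comparison with chondroblasts. In all populations, dead cells and cells with endothelial, red blood cell, leukocyte or epithelial surface markers had been gated out. No treatment or deletion is given for the embryos. The sort described for the chondroblasts did not use COL2 itself, and *Col2a1* measured 1274 to 1886 CPM in them.

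SIX-family proteins are homeodomain transcription factors. EYA proteins do not bind DNA themselves but join them as co-activators, and they also carry a protein phosphatase domain. DACH proteins are related to the SKI co-repressors and can turn such a complex towards repression. The network is best known from the fly eye and, in vertebrates, from muscle, kidney, ear and cranial placodes. In the trunk it acts together with PAX3 in the hypaxial somite cells that migrate into the limb bud to form its muscles, and its binding motif MEF3 lies in the promoter of *Myog*, the gene of the muscle differentiation factor myogenin.

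The MEF3 core was looked for in the 250 bases before each start site of the RefSeq promoter table (build GRCm38.p6, which is mm10). The letters searched were TCAGGTT on both strands, and 1147 of 32851 promoters (3.49%) hold them. Promoters of 7 of the 9 members were in the table, and *Eya1* and *Eya2*, which were not, could not be searched. Among the 7 searched, only *Six4* had the match, though not in its other listed promoter. The match in *Six4* is set next to the match in *Myog*. Both are shown because they place a member of the network beside its textbook muscle target. The sequences are read 5′ to 3′ with the 7 bases of the core in capitals, from chr12:73113325-73113354 (plus strand, while *Six4* lies on the minus strand) and from chr1:134289909-134289938 (plus strand, as *Myog*).
Six4: gatctggccgaTCAGGTTtcccccaggcca
Myog: tagaggggggcTCAGGTTtctgtggcgttg
The windows are 30 bases long. The match lies 90 bases before one RefSeq start site of *Six4*, in a stretch that another transcript in the GENCODE annotation has as its 5′ UTR, and 77 bases before the start site of *Myog*. The *Six4* match lies past, not before, the start site of the other listed *Six4* promoter. A match of letters is a description, and binding was not measured.

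The libraries held between 20316583 and 29162751 counts in exons, so that 3 counts, taken here as the limit of detection, correspond to 0.101 to 0.149 CPM, the count scaled to library size after TMM normalisation. This limit covers counting error only, whereas the standard errors given below also hold the spread between libraries. Of the genes used in the sort, *Jag1* was highest in S9-JAG1+ LMPs (228 to 364 CPM). *Ly6a*, which encodes SCA-1, was highest in S9-SCA-1+ cells but low (3.10 and 3.36 CPM). *Sox9* was highest in OCPs and chondroblasts, as was *Col2a1*, which the sort did not use. *Pdgfra* averaged 34.4 CPM in S9-SCA-1+ cells, 247 in S9-JAG1+ LMPs, 443 in S9-Pαhi LMPs, 718.5 in OCPs and 864 in chondroblasts. Summed over 7 muscle progenitor markers (*Pax3*, *Pax7*, *Lbx1*, *Met*, *Myf5*, *Myod1* and *Myog*), the S9-SCA-1+ libraries had 1501 and 1504 CPM and the other 12 between 1.93 and 11.4. The replicate 3 library of S9-SCA-1+ cells held 3221 CPM of 6 red blood cell markers, against 116 in replicate 2 and 2.42 to 73.2 elsewhere. Replicates are pools of limb buds, and p-values measure the spread between these pools, which may in part be technical. In bulk RNA, fewer cells of a type and less RNA per cell cannot be told apart.

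All 9 members differed among the 5 populations in the joint quasi-likelihood F test of edgeR, where 74.8% of all tested genes did, and all 9 also differed among the 4 populations without S9-SCA-1+ cells, where 68.9% of all genes did. With library totals in place of TMM, *Eya3* was not called in either test (adjusted p = 0.337 and 0.298), and the other 8 were. These shares are so high that the joint tests say little about the family, and the sizes of the differences separate the members. The mean level in the highest population was 355 times that in the lowest for *Eya2*, 151 times for *Eya1*, 17.0 times for *Six2*, 12.4 times for *Eya4* and 10.2 times for *Dach2*. It was 4.13 times for *Dach1*, 2.22 times for *Six4*, 2.14 times for *Six5* and 1.16 times for *Eya3*. The plot of levels by library shows these wide and narrow ranges side by side.

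**Figure D1:**
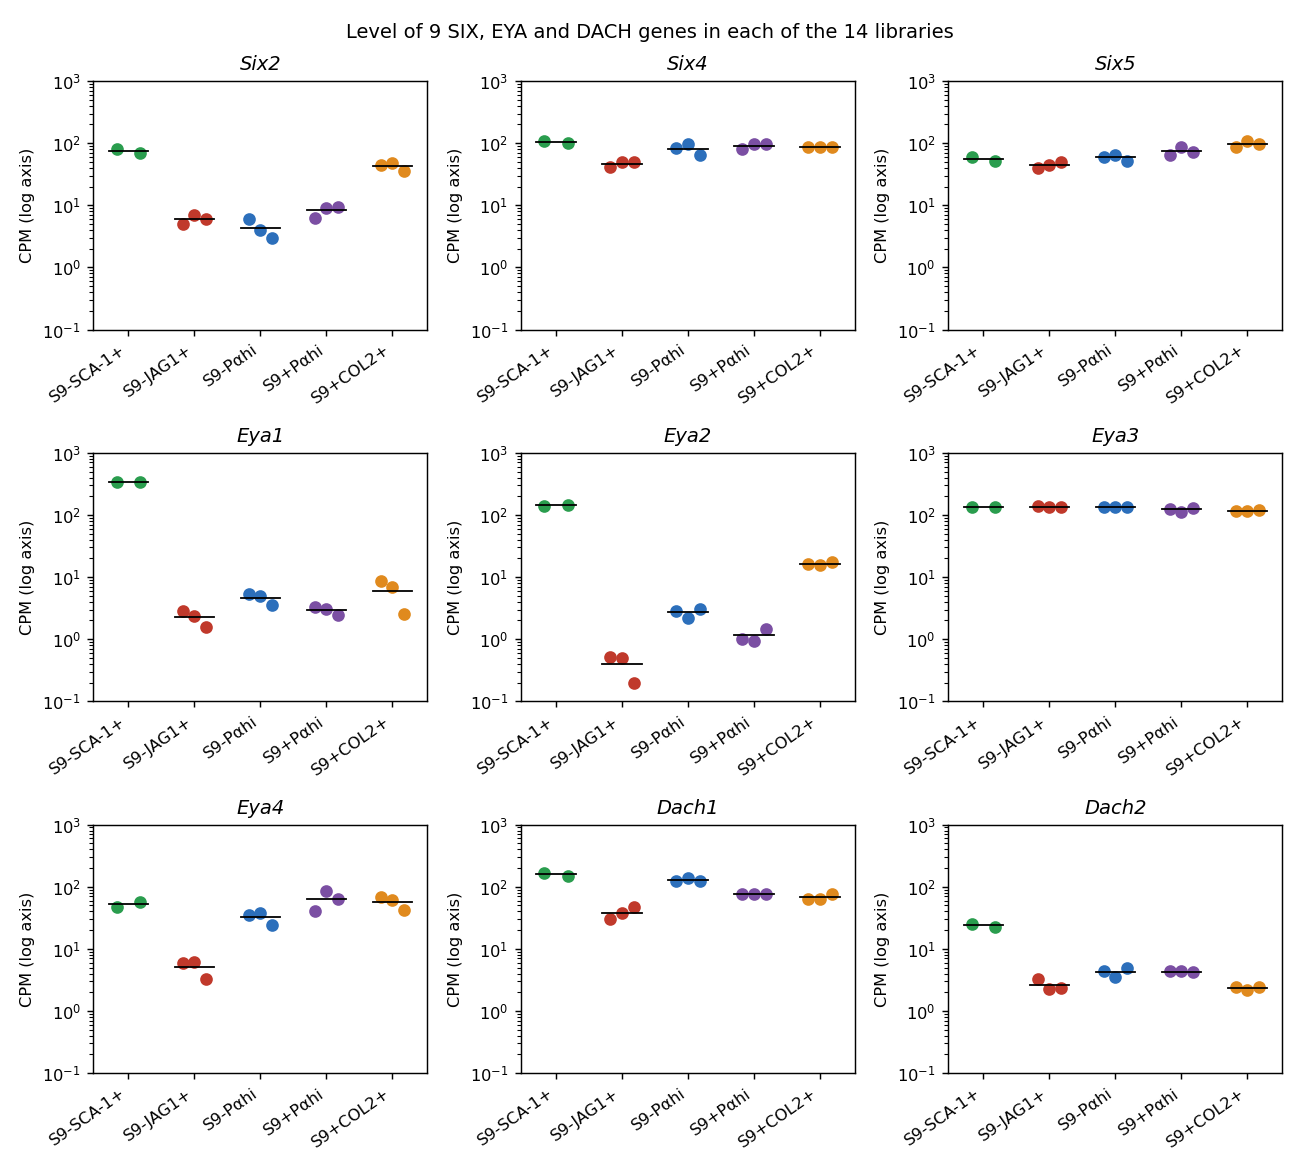
CPM of the 9 genes (log axis) in each of the 14 libraries, by population on the x axis; points are libraries and black lines are means. *Eya1* stands at 341 and 344 CPM in the 2 S9-SCA-1+ libraries and at no more than 8.58 CPM elsewhere, while *Eya3* lies between 113 and 137 CPM in every library.

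For the population comparisons, each population was set against the mean of the other 4, and calls required a log2 fold change of 1.2 or more in size and an adjusted p not above 0.1. These comparisons share libraries and are not independent. In S9-SCA-1+ cells, 4 of the 9 members were called higher (*Six2*, *Eya1*, *Eya2* and *Dach2*), against 4.46% of all genes, and none lower. In S9-JAG1+ LMPs, 5 were called lower (*Six2*, *Eya1*, *Eya2*, *Eya4* and *Dach1*), against 7.7% of all genes, and none higher. S9-Pαhi LMPs had 2 called lower (*Six2* and *Eya1*), against 2.31% of all genes, and none higher. OCPs had 3 called (*Eya4* higher, *Eya1* and *Eya2* lower), against 5.01% of all genes, and chondroblasts had 3 (*Six2* and *Eya2* higher, *Dach2* lower), against 12.7%. The median log2 fold change of the 9 members was 1.16 in S9-SCA-1+ cells and -1.40 in S9-JAG1+ LMPs, where the medians over all tested genes were both -0.01.

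Some of these calls changed when S9-SCA-1+ cells were left out. With the 12 libraries of the other 4 populations alone, each against the mean of the other 3, S9-JAG1+ LMPs kept 2 calls, *Eya2* (log2 fold change -3.18 ± 0.26, SE) and *Eya4* (-3.26 ± 0.29), against 11.6% of all genes. S9-Pαhi LMPs then had 1 call, *Six2* (-1.53 ± 0.21), against 3.71%. OCPs had 1, *Eya4* (1.57 ± 0.21), against 4.19%. Chondroblasts had 3, *Six2* (2.81 ± 0.17), *Eya2* (3.90 ± 0.17) and *Eya4* (1.37 ± 0.22), against 11.1%. Over these libraries the log2 fold change of *Eya1*, called lower above, was -0.93 in S9-JAG1+ LMPs, 0.43 in S9-Pαhi LMPs and -0.46 in OCPs, and none of these was called. Neither were the lower *Six2* of S9-JAG1+ LMPs (-0.95) and the lower *Dach2* of chondroblasts (-0.64). *Dach1* in S9-JAG1+ LMPs (-1.17 ± 0.12, adjusted p = 5.77e-06) and *Eya2* in OCPs (-1.17 ± 0.23, adjusted p = 0.00344) fell only just short of the fold limit.

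**Figure D2:**
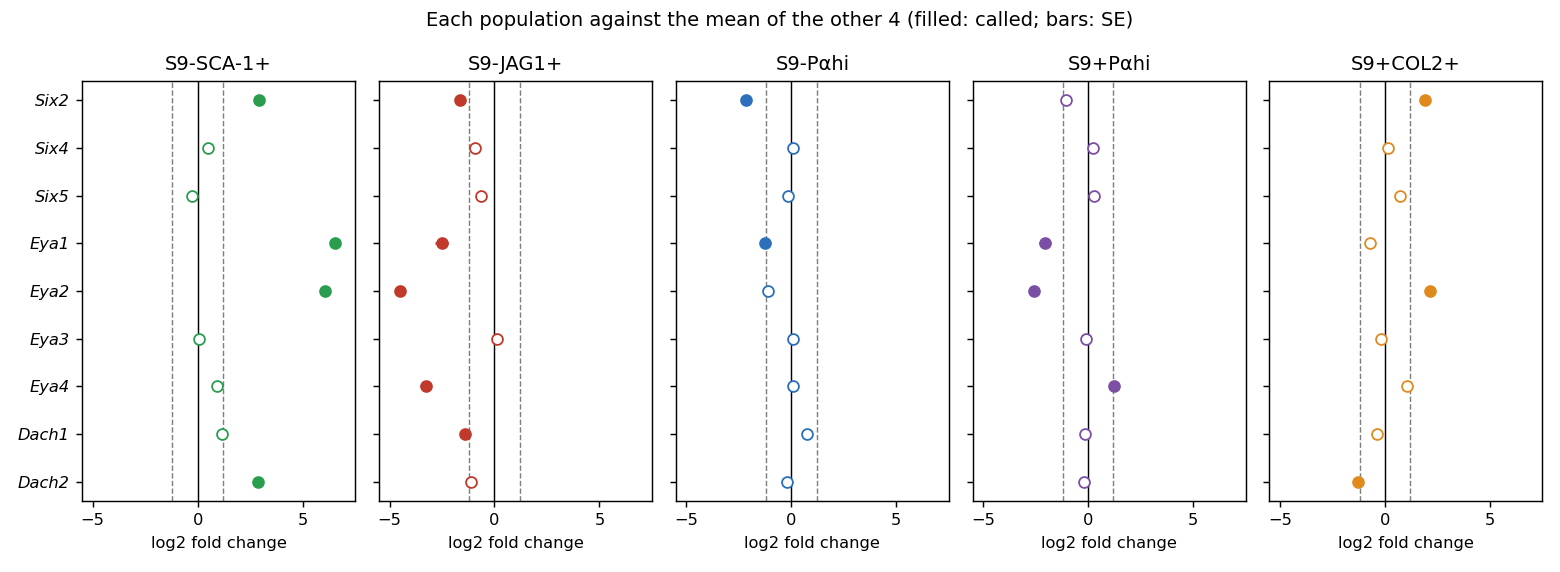
Log2 fold change of each member (rows) in each population against the mean of the other 4 (panels), with standard errors; filled points were called and dashed lines mark 1.2 in either direction. In S9-SCA-1+ cells *Eya1* and *Eya2* lie farthest to the right, at 6.54 and 6.07, and in S9-JAG1+ LMPs all 5 filled points lie to the left.

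Between pairs of populations, 31 of 90 combinations of a member and a pair were called. S9-SCA-1+ cells exceeded S9-JAG1+ LMPs in 6 members, *Six2*, *Eya1*, *Eya2*, *Eya4*, *Dach1* and *Dach2*, where 6.53% of all genes were called higher. They exceeded S9-Pαhi LMPs (4.96% of all genes called higher) and OCPs (4.73%) in 4 members, *Six2*, *Eya1*, *Eya2* and *Dach2*, and chondroblasts (5.56%) in 4, *Eya1*, *Eya2*, *Dach1* and *Dach2*. In these 4 pairs no member was called lower in S9-SCA-1+ cells. S9-JAG1+ LMPs were lower than S9-Pαhi LMPs in *Eya2*, *Eya4* and *Dach1* (7% of all genes called in either direction), than OCPs in *Eya2* and *Eya4* (12.5%) and than chondroblasts in *Six2*, *Eya1*, *Eya2* and *Eya4* (19.4%). S9-Pαhi LMPs and OCPs were each lower than chondroblasts in *Six2* and *Eya2*, where 12.7% and 7.77% of all genes were called. Between S9-Pαhi LMPs and OCPs, edgeR called 0 members (4.84% of all genes), although 5 had an unadjusted p under 0.05, and DESeq2 called 1, *Eya2*.

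*Six2* (Entrez 20472, chr17:85662736-85688254, minus strand) is known as the factor that keeps kidney nephron progenitors undifferentiated. It measured 79.8 and 68.4 CPM in S9-SCA-1+ cells and 44.5, 47.8 and 35.1 CPM in chondroblasts. OCPs had 6.21, 9.13 and 9.51 CPM, S9-JAG1+ LMPs 5.05, 6.87 and 5.91 CPM, and S9-Pαhi LMPs 6.06, 4.06 and 2.99 CPM. The S9-SCA-1+ and chondroblast libraries thus stood apart from the other 9 without overlap. S9-JAG1+ LMPs overlapped with both OCPs and S9-Pαhi LMPs, which did not overlap with each other.

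The level of *Six2* in S9-SCA-1+ cells exceeded the mean of the others by 2.92 ± 0.16 on the log2 scale (SE, adjusted p = 4.39e-09). Against chondroblasts alone the difference was 0.80 ± 0.22 (adjusted p = 0.00582), which was under the fold limit. Chondroblasts exceeded OCPs by 2.36 ± 0.21 (adjusted p = 5.41e-06), and in this pair the stage differed as well. The sum of 6 neural crest and Schwann cell markers was also higher in chondroblasts (21.2 to 29.2 CPM) than in OCPs (9.65 to 21.5 CPM). Of these, *Erbb3* averaged 13.7 against 4.09 CPM, *Sox10* 2.78 against 2.98 CPM, and *Fabp7* was at the limit of detection in both. Their part in the higher *Six2* and *Eya2* of chondroblasts was not tested. Of the 4 members called higher in S9-SCA-1+ cells, *Six2* was the one for which chondroblasts came nearest to them.

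*Six4* (Entrez 20474, chr12:73099609-73114031, minus strand) is a factor of myogenic and other progenitors. Its libraries read 107 and 101 CPM in S9-SCA-1+ cells, 79.1, 96.9 and 96.1 in OCPs, 87.9, 85.5 and 85.4 in chondroblasts, and 84.7, 95.8 and 65.3 in S9-Pαhi LMPs. S9-JAG1+ LMPs had 41.0, 49.6 and 50.1 CPM, below every other library. *Six4* was called in no comparison with the mean of the other 4. The largest of these, in S9-JAG1+ LMPs, was -0.95 ± 0.11 (adjusted p = 1.05e-05), short of the fold limit, and S9-Pαhi LMPs exceeded S9-JAG1+ LMPs by 0.80 ± 0.13 (adjusted p = 0.000433). S9-SCA-1+ cells were higher than the mean of the others by 0.49 ± 0.11 (adjusted p = 0.00371).

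*Six5* (Entrez 20475, chr7:19094544-19098549, plus strand) lies beside the *Dmpk* gene, whose repeat expansion causes myotonic dystrophy in people. It ran in another order than *Six2* and *Six4*. Chondroblasts had 86.1, 106 and 95.7 CPM and OCPs 64.7, 87.0 and 73.0, which overlapped slightly. S9-Pαhi LMPs had 59.2, 65.1 and 52.5 CPM, S9-SCA-1+ cells 59.3 and 52.0, and S9-JAG1+ LMPs 39.5, 45.2 and 50.2. S9-SCA-1+ cells, which led for *Six2* and *Six4*, ranked below S9-Pαhi LMPs for *Six5*, although both overlapped, with a log2 difference of -0.25 ± 0.12 from the mean of the others (adjusted p = 0.122). Chondroblasts exceeded that mean by 0.74 ± 0.10 (adjusted p = 2.07e-05), which was not called for its size.

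*Eya1* (Entrez 14048, chr1:14168953-14311035, minus strand) is the gene of branchio-oto-renal syndrome and, with *Eya2*, is needed for hypaxial muscle. It was the member with the highest CPM in S9-SCA-1+ cells, 341 and 344, and these libraries agreed although their red blood cell markers differed. Chondroblasts had 8.58, 7.05 and 2.59 CPM, S9-Pαhi LMPs 5.29, 4.93 and 3.49, OCPs 3.25, 3.09 and 2.42, and S9-JAG1+ LMPs 2.87, 2.35 and 1.59. The 12 libraries outside S9-SCA-1+ cells were all low but above the limit of detection, with 40 or more counts each. Chondroblasts overlapped with each of the other 3 of these populations, while S9-Pαhi LMPs lay above OCPs and S9-JAG1+ LMPs without overlap.

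S9-SCA-1+ cells exceeded the mean of the others by 6.54 ± 0.20 for *Eya1* (adjusted p = 1.08e-11) and the next population, chondroblasts, by 5.81 ± 0.33 (adjusted p = 1.23e-08). Among the rest, S9-JAG1+ LMPs were called lower than chondroblasts (-1.44 ± 0.34, adjusted p = 0.00238). That call was lost without chondroblast replicate 1 (log2 fold change -1.09) or without S9-JAG1+ replicate 3 (-1.197). The lower call in S9-Pαhi LMPs against the mean of the others (-1.24 ± 0.27, adjusted p = 0.00698) was lost without chondroblast replicate 1 (-1.14) or 2 (-1.19), S9-Pαhi replicate 3 (-1.09) or S9-JAG1+ replicate 1 (-1.19). The spread within chondroblasts, where replicate 3 had less than the other two, was 51.2% of their mean.

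*Eya2* (Entrez 14049, chr2:165595028-165771727, plus strand), the partner of *Eya1* in somites, gave the widest range of all. It had 140.5 and 147 CPM in S9-SCA-1+ cells and 16.01, 15.5 and 17.2 CPM in chondroblasts. S9-Pαhi LMPs had 2.85, 2.22 and 3.04 CPM, OCPs 1.01, 0.951 and 1.48, and S9-JAG1+ LMPs 0.514, 0.503 and 0.198, the last from 12, 12 and 5 counts. No population overlapped with the next in this order.

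The excess of *Eya2* in S9-SCA-1+ cells over the mean of the others was 6.07 ± 0.11 (adjusted p = 5.88e-14), and over chondroblasts alone 3.15 ± 0.15 (adjusted p = 3.95e-09). The log2 fold change of OCPs against chondroblasts was -3.80 ± 0.18 (adjusted p = 3.91e-08) and that of S9-Pαhi LMPs -2.60 ± 0.17 (adjusted p = 8.53e-08). S9-Pαhi LMPs exceeded OCPs by 1.2 ± 0.21 (adjusted p = 0.0018), a value that lay at the limit, just under it before rounding, and ranged from 1.10 to 1.47 when single libraries were left out. OCPs exceeded S9-JAG1+ LMPs by 1.53 ± 0.29 (adjusted p = 0.000842). The last of these calls was lost without S9-JAG1+ replicate 3, the library with 5 counts (log2 fold change of S9-JAG1+ LMPs against OCPs -1.18).

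*Eya3* (Entrez 14050, chr4:132639025-132724765, plus strand) is the broadly expressed EYA gene, studied for its phosphatase and its part in DNA damage signaling. It had 137 and 134 CPM in S9-SCA-1+ cells, 137, 135 and 137 in S9-JAG1+ LMPs, and 136, 133 and 136 in S9-Pαhi LMPs. OCPs had 125, 113 and 132 CPM, and chondroblasts 116, 114 and 121. All 8 *Sox9*-EGFP-negative libraries lay above all 6 positive ones, yet by little. The largest difference from the mean of the other 4 was -0.18 ± 0.05 in chondroblasts (adjusted p = 0.0129), and none was called. With library totals it was -0.07 (adjusted p = 0.224).

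*Eya4* (Entrez 14051, chr10:23102962-23350838, minus strand), a gene of inherited deafness and cardiomyopathy, was lowest in S9-JAG1+ LMPs. These had 5.91, 6.08 and 3.29 CPM, below every other library. OCPs ranged widely, with 40.8, 85.7 and 62.6 CPM. Chondroblasts had 67.9, 60.7 and 41.6 CPM, S9-SCA-1+ cells 47.8 and 55.9, and S9-Pαhi LMPs 34.6, 38.4 and 24.2. OCPs, chondroblasts and S9-SCA-1+ cells overlapped, and only the S9-JAG1+ LMPs and, more narrowly, the S9-Pαhi LMPs lay apart from them.

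The log2 fold change of *Eya4* in S9-JAG1+ LMPs was -3.28 ± 0.28 against the mean of the others (adjusted p = 5.63e-07) and -2.67 ± 0.30 against S9-Pαhi LMPs, the next population (adjusted p = 2.08e-05). OCPs were called higher than the mean of the others, by 1.25 ± 0.20 (adjusted p = 0.000481). This call was lost without OCP replicate 2 (0.98), without chondroblast replicate 3 (1.199) and without S9-JAG1+ replicate 3 (1.19). Chondroblasts, at 1.07 ± 0.20 (adjusted p = 0.000449), were not called but were without their replicate 3 (1.21).

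*Dach1* (Entrez 13134, chr14:97786846-98169765, minus strand) encodes a co-repressor long known from the limb bud. S9-SCA-1+ cells had 166 and 149 CPM, S9-Pαhi LMPs 122, 137 and 122, OCPs 76.4, 76.2 and 76.6, chondroblasts 62.7, 64.1 and 75.8, and S9-JAG1+ LMPs 30.1, 37.3 and 47.3. These 5 ranges did not overlap. S9-JAG1+ LMPs were called lower than the mean of the others (-1.40 ± 0.12, adjusted p = 4.13e-07) and lower than S9-Pαhi LMPs (-1.73 ± 0.13, adjusted p = 6.75e-07). S9-Pαhi LMPs exceeded OCPs by 0.73 ± 0.13 (adjusted p = 0.00209), and chondroblasts exceeded S9-JAG1+ LMPs by 0.82 ± 0.13 (adjusted p = 0.000111), both under the fold limit. S9-SCA-1+ cells and S9-Pαhi LMPs, the highest pair, differed by 0.32 ± 0.14 (adjusted p = 0.133). S9-SCA-1+ cells exceeded the mean of the others by 1.16 ± 0.11, and this passed the limit without S9-JAG1+ replicate 3 (1.21) or without S9-SCA-1+ replicate 3 (1.23). Their call against chondroblasts (1.23 ± 0.14, adjusted p = 7.79e-06) was lost without chondroblast replicate 1 (1.19) or S9-SCA-1+ replicate 2 (1.15).

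*Dach2* (Entrez 93837, chrX:113297496-113836386, plus strand), the second DACH gene, is known from somites and muscle. It had 25.0 and 22.7 CPM in S9-SCA-1+ cells. S9-Pαhi LMPs had 4.47, 3.54 and 4.88 CPM, OCPs 4.38, 4.33 and 4.20, S9-JAG1+ LMPs 3.25, 2.26 and 2.34, and chondroblasts 2.42, 2.16 and 2.47. S9-SCA-1+ cells stood apart, and the other populations fell into a pair near 4 CPM and a pair near 2 CPM, each pair overlapping within itself. The excess of S9-SCA-1+ cells over the mean of the others was 2.87 ± 0.12 (adjusted p = 2.67e-10), and over S9-Pαhi LMPs alone 2.48 ± 0.17 (adjusted p = 8.52e-08). Chondroblasts were called lower than the mean of the others (-1.31 ± 0.14, adjusted p = 3.5e-06). S9-JAG1+ LMPs, at -1.11 ± 0.14 (adjusted p = 2.61e-05), were not called but were without their replicate 1 (-1.30).

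The EYA genes were compared with each other per kilobase of exon, as CPM divided by the length in the count table. Summed over *Eya1* to *Eya4*, S9-SCA-1+ cells had 167 and 172 CPM per kb, against 27.5 to 28.6 in S9-JAG1+ LMPs, 34.0 to 36.9 in S9-Pαhi LMPs, 35.1 to 43.8 in OCPs and 40.4 to 46.7 in chondroblasts. In S9-SCA-1+ cells *Eya1* made up 46.5% ± 0.60 (SD, n = 2) of this sum, *Eya2* 30.7% ± 0.41, *Eya3* 15.3% ± 0.49 and *Eya4* 7.45% ± 0.68. In S9-JAG1+ LMPs *Eya3* alone made up 93.2% ± 1.96 (n = 3). The share of *Eya3* was 72.5% ± 4.04 in S9-Pαhi LMPs, 59.7% ± 9.36 in OCPs and 51.9% ± 5.30 in chondroblasts, while that of *Eya4* was 21.9% ± 4.11, 37.6% ± 9.73 and 31.4% ± 5.51. *Eya2* reached 13.6% ± 1.68 in chondroblasts and stayed under 4% in the other 3 populations outside S9-SCA-1+ cells. The shares move with the lengths used: with all GENCODE exon bases, *Eya2* (39.8%) came before *Eya1* (36.0%) in S9-SCA-1+ cells, and the share of *Eya4* was 11.9% in S9-Pαhi LMPs, 22.7% in OCPs and 18.2% in chondroblasts. *Eya3* led in the other 4 populations under each of the 4 lengths tried.

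**Figure D3:**
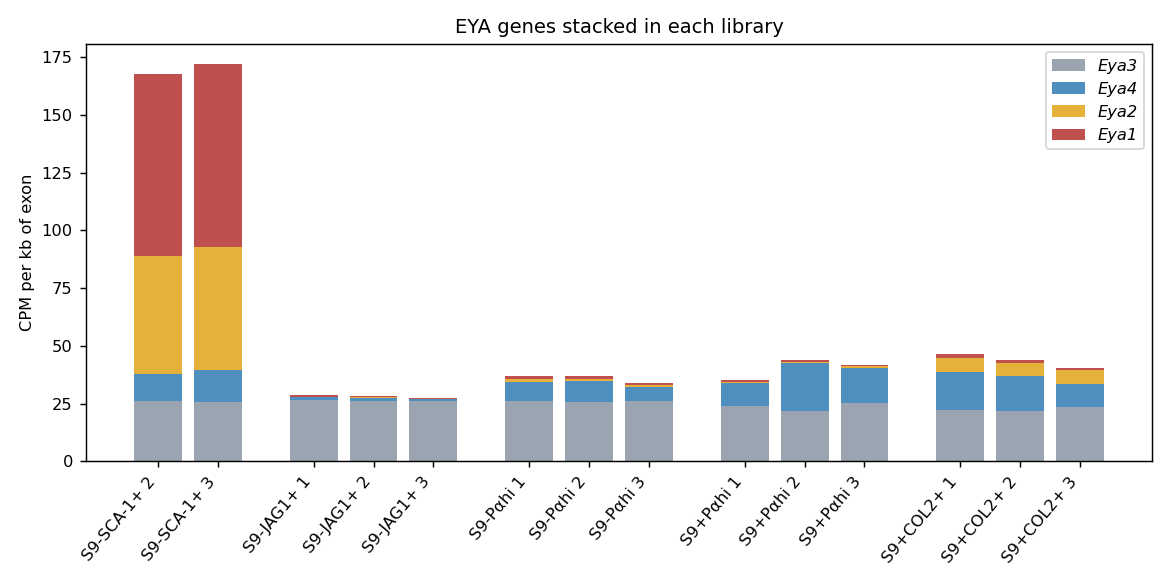
CPM per kilobase of exon of the 4 EYA genes, stacked in 1 bar for each of the 14 libraries (x axis, population and replicate number). The *Eya3* part has nearly the same height in every bar, the *Eya1* and *Eya2* parts fill most of the S9-SCA-1+ bars, and the *Eya4* part is thin in S9-JAG1+ LMPs.

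Per kilobase, *Dach1* exceeded *Dach2* in every library, and *Dach2* made up 9.59% ± 0.06 (SD, n = 2) of the sum of both in S9-SCA-1+ cells, against 2.34% ± 0.49 in S9-Pαhi LMPs, 2.39% ± 0.21 in chondroblasts, 3.80% ± 0.09 in OCPs and 4.83% ± 1.96 in S9-JAG1+ LMPs. The sum itself was 32.1 CPM per kb in S9-SCA-1+ cells and 7.35 in S9-JAG1+ LMPs.

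The 4 members called higher in S9-SCA-1+ cells were set beside the muscle progenitor markers, as percent of the mean in those cells. In chondroblasts *Six2* stood at 57.3%, *Eya2* at 11.3%, *Dach2* at 9.85% and *Eya1* at 1.77%. The markers stood at 0.04% for *Pax3*, 0.09% for *Lbx1*, 0.39% for *Myf5*, 1.2% for *Met*, 2.97% for *Myod1*, 3.21% for *Pax7* and 17.7% for *Myog*. *Six2* therefore exceeded all 7 markers on this scale and *Eya2* 6 of 7. In OCPs, *Six2* stood at 11.2%, *Eya1* at 0.85% and *Eya2* at 0.80%, with markers between 0.16% and 2.75%. In S9-JAG1+ LMPs, *Dach2* stood at 11.0%, *Six2* at 8.02%, *Eya1* at 0.66% and *Eya2* at 0.28%, with markers between 0.07% and 0.67%. The upper end of these markers is *Myog*, within 3 counts in each library, and the next marker, *Myf5*, stood at 0.32%. In S9-Pαhi LMPs, *Eya1* stood at 1.33% and *Eya2* at 1.88%, above all 7 markers, which lay between 0.12% and 0.71%. *Pax7* and *Myog* were within 3 counts in each library of S9-Pαhi LMPs and OCPs, as were *Pax7*, *Myod1* and *Myog* in S9-JAG1+ LMPs. Whether cells of the muscle lineage contribute to the low *Eya1* and *Eya2* counts of these populations was not tested.

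**Figure D4:**
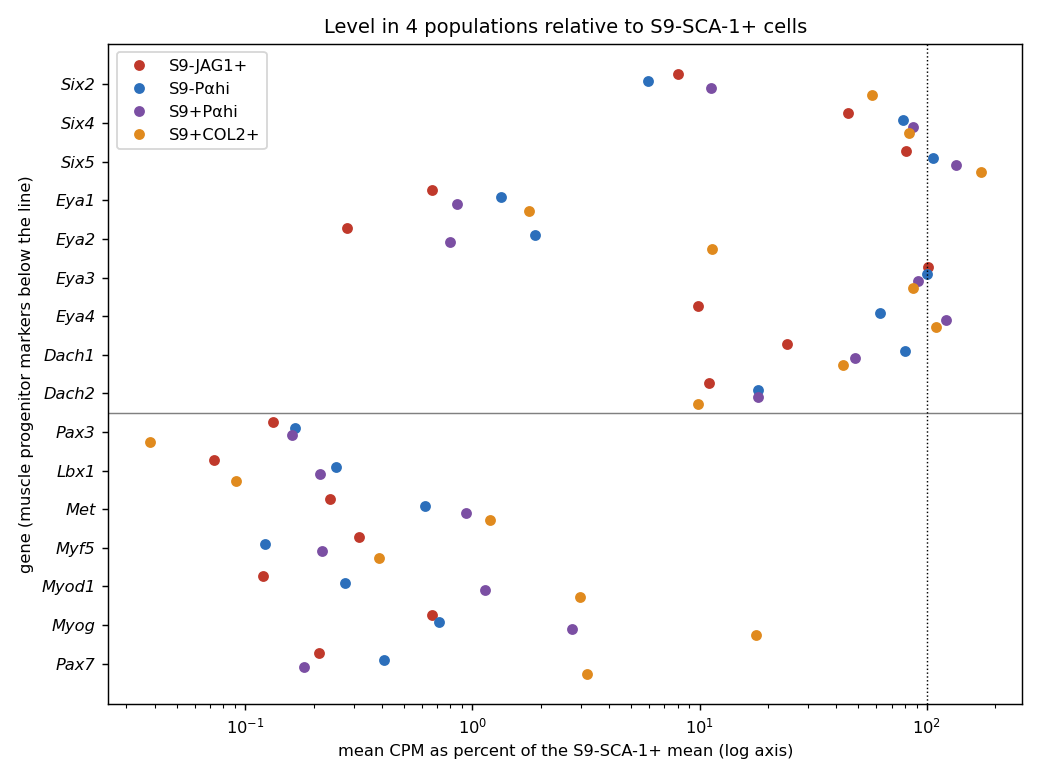
Mean CPM in 4 populations as percent of the mean in S9-SCA-1+ cells (x axis, log) for the 9 members, above the line, and 7 muscle progenitor markers, below it. *Six2* in chondroblasts lies at 57.3%, to the right of all markers, and the *Eya3* points lie close to 100%, between 86.6% and 101%.

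Over the 14 libraries, members could be grouped by the correlation of their log2 CPM, given here as a description of points that share populations. *Six4* and *Eya4* followed each other most closely (Pearson's r = 0.92, and 0.94 over the 12 libraries without S9-SCA-1+ cells). *Eya1* and *Dach2* had r = 0.90 over 14 libraries and -0.04 over 12, so that their likeness lay in the S9-SCA-1+ libraries. *Six2* and *Eya2* had 0.87 and 0.76. *Eya3* ran against *Six5* (-0.87 in both sets).

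The tested genes most like each member over the 14 libraries also differed from member to member. For *Eya1* they were *Tubb2a* (r = 0.98), the α4 integrin gene *Itga4* (0.98), with a mean of 258 CPM in S9-SCA-1+ cells and 3.10 to 4.99 elsewhere, and *Nectin1* (0.98). For *Eya2* they were *Lrrn1*, *Tmem30b* and the GDNF receptor gene *Gfra1* (0.97, 0.96 and 0.96). For *Dach2* they were *Slc35g1*, *Ptprj* and *Pdgfc* (0.97, 0.96 and 0.96), for *Six2* *Cpt1a*, *Sema3c* and *Zcchc12* (0.97, 0.97 and 0.96), and for *Six4* *Ntf3*, *Fbxw5* and *5930403L14Rik* (0.95, 0.93 and 0.93). For *Six5* they were *Zfp467*, *Arhgef28* and the natriuretic peptide receptor gene *Npr2* (0.98, 0.97 and 0.97). For *Eya4* they were *Nrk*, *2500004C02Rik* and *Fibin* (0.97, 0.96 and 0.96), for *Dach1* *Pou2f2*, *Id2* and *Cntnap2* (0.94, 0.94 and 0.93), and for *Eya3* *Stk24*, *Uck2* and *Fbxw8* (0.96, 0.95 and 0.95).

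Upstream of the network stand PAX factors, of which 5 of 7 listed genes could be tested. *Pax3*, the main PAX factor of migrating limb muscle progenitors, had 463 ± 49.3 CPM (SD, n = 2) in S9-SCA-1+ cells and means of 0.177 to 0.768 elsewhere. *Pax7*, of later muscle progenitors, had 6.63 ± 0.12 CPM there. The calls of both in S9-SCA-1+ cells were upward (log2 fold changes 9.84 ± 0.23 and 7.39 ± 0.37), and *Pax1* and *Pax9*, which mark other skeletal progenitors, were called lower. *Pax1* was called higher in S9-Pαhi LMPs, with 87.4 ± 39.0 CPM, and *Pax9* there and in chondroblasts, with 25.6 ± 9.15 CPM in the latter. Chondroblasts also had *Pax7* called higher, at 0.213 ± 0.088 CPM, and *Pax3* lower. This *Pax7* level was low and of the later stage, and its log2 fold change (1.23 ± 0.55) was close to the limit. *Pax7* averaged 0.014 CPM in S9-JAG1+ LMPs, 0.027 in S9-Pαhi LMPs and 0.012 in OCPs, below the limit of detection. In S9-JAG1+ LMPs 3 of the 5 were called lower (*Pax3*, *Pax7* and *Pax9*), against 7.7% of all genes, and none higher. The same 3 were called lower in OCPs and none higher, where 5.01% of all genes were called in either direction. In S9-Pαhi LMPs *Pax3* was called lower as well. The lower calls of *Pax3* and *Pax7* were against a mean that includes S9-SCA-1+ cells. *Pax3* averaged 0.617 CPM in S9-JAG1+ LMPs and 0.177 CPM in chondroblasts.

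Downstream, 9 of 10 listed muscle genes could be tested. S9-SCA-1+ cells had 6 called higher, against 4.46% of all genes, and 1 lower. The 6 were *Myog* (4.08 ± 0.83 CPM, log2 fold change 5.40 ± 0.30), the myogenic factors *Myf5* (68.5 ± 9.71 CPM) and *Myod1* (22.7 ± 0.96 CPM), the receptor gene *Met* (689 ± 42.0 CPM), *Lbx1* and *Cdh15*, and the lower one was *Mef2c*. The same 6 were called lower in S9-JAG1+ LMPs, against 7.7% of all genes, and in S9-Pαhi LMPs, against 2.31%. None was called higher in these LMPs. The calls are against a mean that includes S9-SCA-1+ cells, where these 6 genes were highest. *Myog* and *Myod1* averaged 0.027 CPM each in S9-JAG1+ LMPs, below the limit of detection. In chondroblasts 2 were called higher and 2 lower, where 12.7% of all genes were called in either direction. The higher ones were *Mef2c* (24.4 ± 5.38 CPM), which also acts in cartilage, and *Myog* (0.722 ± 0.205 CPM, log2 fold change 2.27 ± 0.35). *Myog* was low in chondroblasts and was measured there at the later stage. The median log2 fold change of the list was 5.52 in S9-SCA-1+ cells and -2.24 in S9-JAG1+ LMPs, the latter against a mean that includes S9-SCA-1+ cells.

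Of the growth and kidney targets, all 8 were tested, and they did not move as one group. S9-SCA-1+ cells had 2 called higher (*Ezr*, which encodes ezrin, with 86.1 ± 6.46 CPM, and *Gdnf*) and 3 lower (*Ccna1*, *Fgf10* and *Sall1*), S9-JAG1+ LMPs 2 higher (*Fgf10* and *Sall1*) and 3 lower (*Ccna1*, *Gdnf* and *Igfbp5*), and chondroblasts 3 higher (*Ccna1*, *Igfbp5* and *Sall1*) and none lower. S9-Pαhi LMPs had 1 called lower, *Igfbp5*, and OCPs 2 higher (*Ccna1* and *Gdnf*) and 1 lower (*Sall1*). Of all 15125 tested genes, 1703 were called in either direction in S9-SCA-1+ cells, 1599 in S9-JAG1+ LMPs and 581 in S9-Pαhi LMPs. OCPs had 758 of all genes called (5.01%) and chondroblasts 1921 (12.7%). The cell cycle gene *Ccnd1* had its lowest mean in S9-SCA-1+ cells (171 ± 13.9 CPM, log2 fold change -1.03 ± 0.12, adjusted p = 1.23e-05). Its highest mean was in chondroblasts (427 ± 10.1 CPM, 0.62 ± 0.09, adjusted p = 5.58e-05). Both differences fell short of the fold limit and were not called. *Slc12a2* was not called in any population, and *Ccna1* was below 2 CPM on average in all of them.

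Among 12 measured co-factors of the complexes, 11 were not called in any population against the mean of the other 4. *Ncor1*, *Sin3a* and *Hdac3*, which encode parts of co-repressor complexes, had means of 305 to 344, 189.9 to 225 and 117 to 128 CPM over the 5 populations. The exception was *Tle2*, a Groucho co-repressor gene named here after its values were seen. It was called lower in S9-JAG1+ LMPs (3.72 ± 1.17 CPM, log2 fold change -2.36 ± 0.36) and higher in OCPs (32.8 ± 18.2 CPM, 1.55 ± 0.27) and in chondroblasts (30.4 ± 9.30 CPM, 1.43 ± 0.27). The DACH relatives *Ski* and *Skil* had means of 218 to 284 and 107 to 139 CPM and were likewise not called, *Skor1* was called higher in S9-JAG1+ LMPs with only 0.525 ± 0.177 CPM, and *Six3*, *Six6* and *Skor2* were too low to be tested.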

How the data were processed

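The authors deposited raw counts per gene, whole numbers without normalization. According to their methods, single-end reads were aligned to mm10 with STAR and counted in exons of RefSeq mRNAs with QuasR, and use of the strand is not given in the sources used here. The deposited gene length is of another unit and served for levels per kb. Entrez identifiers were matched to RefSeq symbols (24374 of 24454, the other 80 with 0.358% of counts). All sample columns were used. Tests used edgeR 4.0.16 (R 4.3.3): after filterByExpr and TMM scaling, quasi-likelihood F tests were run on 1 mean per population over all 14 libraries. P-values were adjusted by Benjamini-Hochberg over 15125 genes. The standard error is the log2 fold change divided by the square root of F, and log2 CPM used a prior count of 2. The scripts were tested on simulated data. DESeq2 1.42.0, other scalings, filters and left-out libraries were alternatives. The members and gene lists were chosen with earlier results of these data known, and 2 listed genes are not reported here. Text rule: all 9 members, the first 4 genes of each list, and the 3 most alike genes with mean log2 CPM of at least 1.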

Additional observations from a re-analysis of the deposited data

How the results depend on the processing

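Of the recomputed counts of calls, 318 stayed within 1.5 times the reported count and 18 did not. Without a limit on the fold change, the genes called were 7015 in S9-SCA-1+ cells, 7546 in S9-JAG1+ LMPs, 2363 in S9-Pαhi LMPs, 4317 in OCPs and 9838 in chondroblasts, the members called were 7, 8, 4, 5 and 8, and 63 of 90 pair combinations were called, by construction. With the 12 libraries without S9-SCA-1+ cells, 2 members were called in S9-JAG1+ LMPs, 1 in S9-Pαhi LMPs and 1 in OCPs, since those cells then left the mean of the others. Leaving out 1 library gave 1 to 2 members in S9-Pαhi LMPs. There, *Eya1* was lost without chondroblast replicate 1 or 2, S9-Pαhi replicate 3 or S9-JAG1+ replicate 1. The near-zero *Six4* and *Eya4* differences of S9-Pαhi LMPs ranged from -0.068 to 0.199 and from -0.082 to 0.229, with the lowest of each without S9-Pαhi replicate 2, and the cause of the change of sign was not tested. Shared replicate numbers did not clearly pair the libraries: 4 of 18 same-number pairs had deviations with r over 0.1 (-0.18 to 0.31), and 5 of 12 libraries correlated best with their own number. The highest r, 0.413, was between OCP replicate 1 and S9-Pαhi replicate 3. Whether libraries with different numbers share pools or batches was not tested, and the tests treat all libraries as independent. With the replicate block, 1739, 1589, 573, 756 and 1952 genes and 4, 5, 2, 3 and 3 members were called, in the order above, joint tests called 11635 and 10617 genes and 9 members each, and pairs 31. *Dach1* of S9-SCA-1+ cells against chondroblasts (log2 fold change 1.23) fell under the limit with the block (1.17) and with library totals (1.12). With library totals, 8 members were called in each joint test, without *Eya3*. *Eya2* of S9-Pαhi LMPs against OCPs passed the limit with DESeq2 (1.21), with the block (1.21) and over 12 libraries (1.22). Groups of 2 or 3 libraries limit all tests.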
